A study of Mus musculus with 3 samples.

Results

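The mitochondrial genome of the mouse carries 37 genes in GENCODE M21: 13 coding genes, 2 rRNA genes and 22 tRNA genes, of 55450 annotated genes with a transcript. The cells are fully grown oocytes of the mouse, which have ended their growth in the follicle and have not yet been ovulated. Their small RNAs had been cut from gels in windows of 19-24 nt, 24-30 nt and 19-30 nt, here called fractions, and sequenced as 1 library per fraction. All mice had been given 5 IU of the gonadotropin PMSG, which stimulates follicles to grow, 48 hours before they were killed. The labels name no strain, age or other treatment, and nothing tells whether the libraries share oocytes. A read was counted for a gene where its first 20 nt, after removal of the 3′ linker, equalled the gene's sequence on either strand. This took 1767 reads of the 19-24 nt fraction, 14560 of the 24-30 nt fraction and 700 of the 19-30 nt fraction. With 1 library per fraction there is no replicate check, and every interval is a 95% interval for counting error alone, which leaves out amplification and library preparation.

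Both strands of mitochondrial DNA are transcribed as long polycistronic RNAs. The tRNAs sit between most of the other genes, and their excision by enzymes that cut at their 5′ and 3′ ends frees the rRNAs and mRNAs. The sequence CCA is not encoded in the tRNA genes and is added to the 3′ end of each tRNA after excision. Oocytes hold very many mitochondria, all of them maternal. In a total RNA library, small reads from these genes can be pieces of mature tRNAs, rRNAs and mRNAs or of the spacers and antisense strands that processing leaves. Fewer mitochondria and less RNA per mitochondrion cannot be told apart in such data.

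The leading 5′ ends of the genes with most reads are shown first, since the counts below turn on where these fragments begin and end. Sequences are those of the GENCODE M21 transcripts on GRCm38, written as DNA in the sense direction, with anticodon bases in capitals. Where fewer than 20 inserts of the 19-24 and 19-30 nt fractions shared the most frequent length, the first 26 bases are given, which is the shorter read length. The mt-Ts2 fragment (tRNA-Ser, chrM:11613-11634, plus strand) begins at base 1 of the tRNA. It is shown at its most frequent sized length, 22 nt, which reaches the last anticodon base. In the 24-30 nt fraction 3010 of 3017 inserts from this base could not be sized, so their end is not known. The mt-Tp fragment (tRNA-Pro, chrM:15393-15422, minus strand) begins at base 1, and the 30 nt shown stop at the last base before the anticodon. This end rests on 23 inserts of the 19-30 nt fraction. Another 52 of the 76 reads from base 1 there had no linker, and the 570 of the 24-30 nt fraction could not be sized. The mt-Ta fragment (tRNA-Ala, chrM:5023-5048, minus strand), the mt-Te fragment (tRNA-Glu, chrM:14076-14101, minus strand) and the mt-Tg fragment (tRNA-Gly, chrM:9428-9453, plus strand) begin 5 or 6 bases behind the anticodon and hold none of it. The mt-Rnr2 fragment (large-subunit rRNA, chrM:1094-1113, plus strand) begins at base 1 of the rRNA.
mt-Ts2, bases 1 to 22: aagaaagattgcaagaactGCT
mt-Tp, bases 1 to 30: caagaagtagtttaattagaataccagctt
mt-Ta, bases 39 to 64: atagatgtaggatgaagtcttacagt
mt-Te, bases 39 to 64: attggtcgcagttgaatgctgtgtag
mt-Tg, bases 38 to 63: agtagattctgaataaacccagaaga
mt-Rnr2, bases 1 to 20: actaatcctagccctagccc

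The 3 libraries held 764539, 1484509 and 943811 reads (19-24, 24-30 and 19-30 nt), of which 305875, 343293 and 143414 matched an annotated transcript. RPM stands below for reads per 1000000 matched reads, the unit of every level. GENCODE M21 holds no nuclear tRNA genes and few cytosolic rRNA genes, so reads of those RNAs are not in this total. The limit used for a count of 0 is 3 reads, which are 9.81 RPM in the 19-24 nt, 8.74 in the 24-30 nt and 20.9 in the 19-30 nt fraction. Transcripts of 10 oocyte genes, among them the zona and growth factor genes Zp3 and Gdf9, summed to 75.3, 106 and 218 RPM, with a read for 6, 9 and 3 of the 10. Nlrp5, an oocyte factor that early embryos need, gave 39.4, 13.2 and 190 RPM of these sums, and the other 9 genes gave 36, 93.2 and 27.9 RPM. Markers of granulosa and cumulus cells, the somatic cells around the oocyte, summed to 68.8 RPM in the 19-24 nt and 220 RPM in the 24-30 nt fraction (5 and 7 of 8 genes with a read) and to 0.0304 RPM in the 19-30 nt fraction, where none had a whole read. Markers of theca and stroma summed to 6.60, 35.4 and 8.13 RPM. Blood markers summed to 5210, 185 and 31.4 RPM, nearly all of it the red-cell microRNA Mir451a, while Hba-a1 and Alas2 were at 0 in all 3 libraries. Their part in the mitochondrial reads was not tested.

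Mitochondrial genes gave 0.578% of matched reads in the 19-24 nt fraction (Wilson interval 0.551 to 0.605), 4.24% in the 24-30 nt fraction (4.17 to 4.31) and 0.488% in the 19-30 nt fraction (0.453 to 0.526). The 24-30 nt fraction thus stood 7.34-fold above the 19-24 nt fraction (conditional binomial interval 6.99 to 7.72), and the 19-30 nt fraction at 0.115 of the 24-30 nt fraction (0.107 to 0.124). The denominator bears on the first of these ratios: per matched read outside microRNA genes the shares were 2.94%, 4.59% and 0.605%, and the ratio was 1.56. The 19-30 nt fraction then stood at 0.206 of the 19-24 nt fraction, against 0.845 (0.773 to 0.923) with microRNA reads kept in. With these kept in and a linker search that allows no mismatch it was 1.01, close to equal. A lower share in the 19-30 nt fraction by RPM thus depends on the linker setting. By RPM, the sum of the granulosa and cumulus markers and that of the 9 oocyte genes without Nlrp5 were also lowest in the 19-30 nt and highest in the 24-30 nt fraction. The 9 oocyte genes had only 11, 32 and 4 reads (19-24, 24-30 and 19-30 nt). Theca and stroma markers were highest in the 24-30 nt fraction too. Blood markers were highest in the 19-24 nt fraction, and the oocyte list with Nlrp5 in the 19-30 nt fraction. These orders of the lists keep microRNA reads in the denominator and may differ without them. A link of any list to the mitochondrial share was not tested. The 19-30 nt fraction had reads of 36 nt and the others of 26 nt, so that window, preparation and run cannot be told apart.

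tRNA genes had the most reads of the 3 types in every library. They gave 64.2% of mitochondrial reads in the 19-24 nt fraction (62.0 to 66.4), 79.1% in the 24-30 nt fraction (78.4 to 79.7) and 57.0% in the 19-30 nt fraction (53.3 to 60.6). The 2 rRNA genes gave 16.7%, 9.11% and 38%, and the 13 coding genes 19.1%, 11.8% and 5.00%. This order depends on how reads are counted. Over distinct sequences the coding genes came first in the 19-24 nt (45.7% against 27.7% for tRNA genes) and 24-30 nt fractions (53.2% against 21.3%). Without the tRNA gene mt-Ts2, the rRNA genes came first in the 19-30 nt fraction, with 266 of 501 reads (53.1%, 48.7 to 57.4) against 39.9% for the other tRNA genes. Per 100 nt of gene, the tRNA genes stood at 247, 2234 and 185 RPM, the rRNA genes at 38, 152 and 73.1 RPM, and the coding genes at 9.66, 44.0 and 2.14 RPM. The order of the 3 types per length was the same in the 3 libraries. All 37 genes had reads in the 19-24 and 24-30 nt fractions and 32 in the 19-30 nt fraction. Genes at 0 there were mt-Tv, mt-Ty, mt-Tk, mt-Atp8 and mt-Nd3. Reads were concentrated on few starts, of which the 10 most frequent gave 49.7% of mitochondrial reads in the 19-24 nt, 43.0% in the 24-30 nt and 74.4% in the 19-30 nt fraction.

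**Figure D1:**
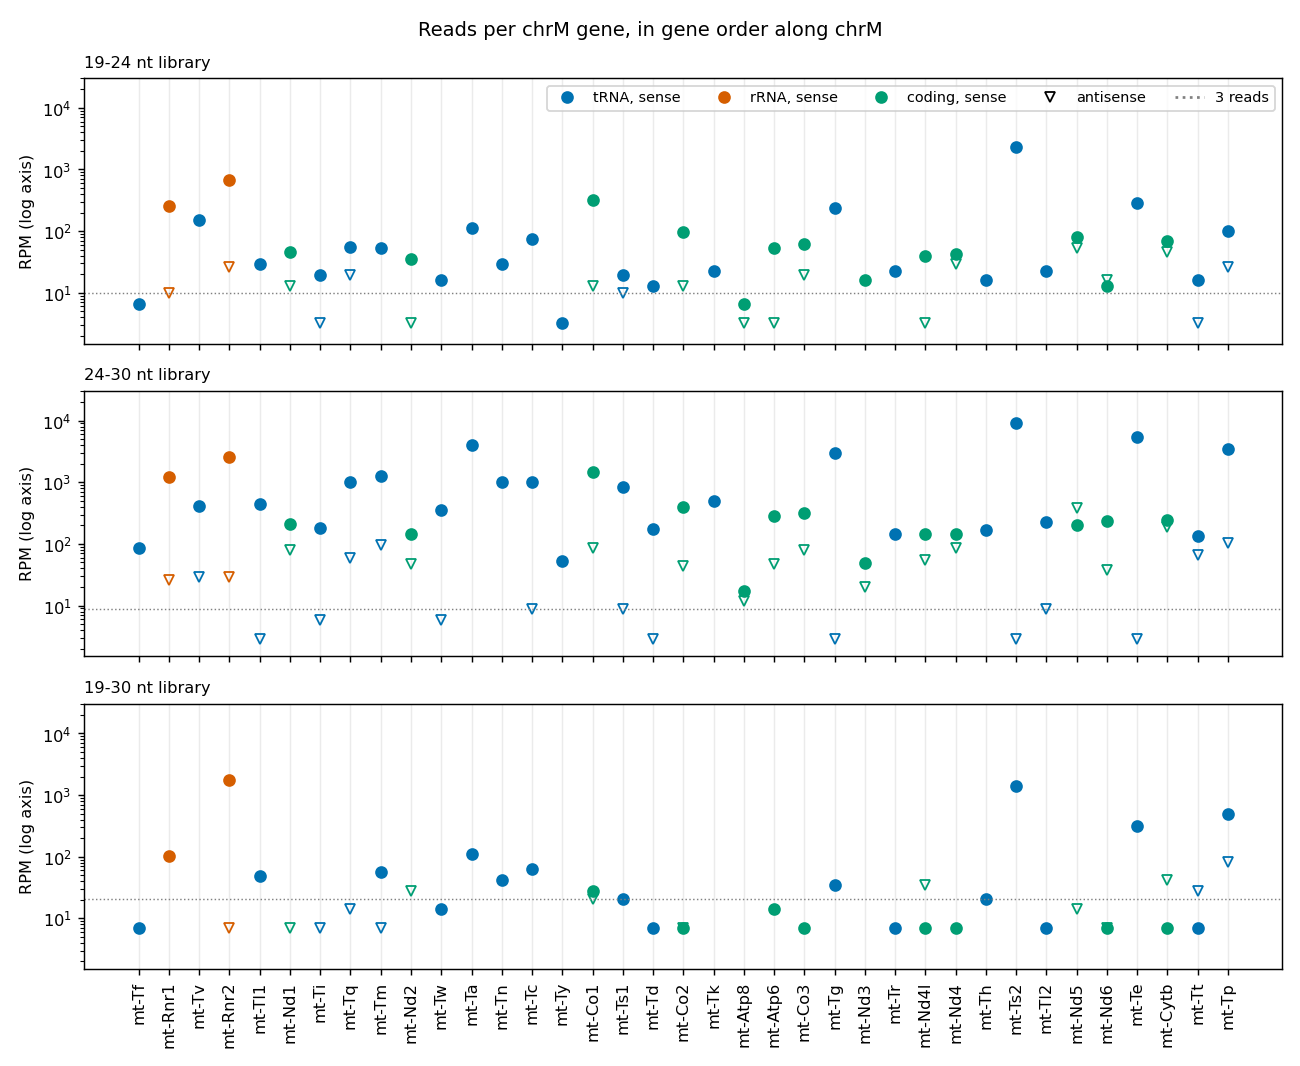
RPM of each of the 37 genes in gene order along the mitochondrial genome, on a log axis, with filled circles for sense reads, open triangles for antisense reads and a dotted line at 3 reads. Genes at 0 are not drawn; mt-Ts2 is the highest tRNA gene in all 3 panels, and mt-Rnr2 is the highest gene in the 19-30 nt panel, which like the others counts inserts of at least 20 nt.

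Compared gene by gene, 35 mitochondrial genes had at least 20 reads in the 19-24 and 24-30 nt fractions together, and all 35 were at least 2-fold higher in the 24-30 nt fraction. Of all 1890 genes with that many reads, 68.7% were. The median ratio was 8.91 for the mitochondrial genes and 4.58 for all genes. The ratio was 9.04 for the summed tRNA genes (8.50 to 9.61), 4.0 for the rRNA genes (3.53 to 4.56) and 4.56 for the coding genes (4.05 to 5.14). Per matched read outside microRNA genes, 17 of the 35 were at least 2-fold higher, against 18.9% of all genes, and none at least 2-fold lower, against 33.8%. The median ratio was then 1.90 for the mitochondrial genes and 0.976 for all genes, and the ratios of the types fell to 1.92, 0.853 and 0.970 for tRNA, rRNA and coding genes. mt-Ta had the highest single ratio by RPM, 35.0 (25 to 50.5), while mt-Ts2 stood at 3.91 (3.61 to 4.25), and without microRNA reads these were 7.45 (5.33 to 10.7) and 0.833 (0.768 to 0.904). Between the 19-30 and 19-24 nt fractions, 10 of 17 mitochondrial genes were at least 2-fold lower in the 19-30 nt fraction, against 17.8% of all genes tested, and 2 of 17 at least 2-fold higher, against 78.2%. The 2 were mt-Rnr2, at 2.51 (2.09 to 3.03), and mt-Tp, at 4.48 (3.03 to 6.75). Without microRNA reads none of the 17 was at least 2-fold higher, against 5.24% of all genes, and 15 were at least 2-fold lower, against 21.9%. mt-Rnr2 then stood at 0.612 (0.508 to 0.739) and mt-Tp at 1.09 (0.738 to 1.64), so that the direction of mt-Rnr2 turns with the denominator. Between the 19-30 and 24-30 nt fractions 34 of 35 were at least 2-fold lower in the 19-30 nt fraction, against 25.6% of all genes. mt-Rnr2 was the exception, at 0.674 (0.583 to 0.776).

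Among tRNAs, reads were concentrated on mt-Ts2, mt-Te, mt-Ta, mt-Tp and mt-Tg. These 5 genes gave 83.5% of tRNA reads in the 19-24 nt fraction (81.3 to 85.6), 75.2% in the 24-30 nt fraction (74.4 to 76.0) and 87.2% in the 19-30 nt fraction (83.6 to 90.1). mt-Ts2, which decodes the AGY serine codons and lacks the D-arm of other tRNAs, had 716, 3143 and 199 reads (19-24, 24-30 and 19-30 nt). mt-Te, the glutamate tRNA, had 86, 1899 and 46 reads. mt-Ta, the alanine tRNA, had 35, 1375 and 16. mt-Tp, the proline tRNA, had 39, 1210 and 82. mt-Tg, the glycine tRNA, had 72, 1029 and 5. By reads and by RPM all 5 were highest in the 24-30 nt fraction. Per matched read outside microRNA genes this held for the other 4, while mt-Ts2 stood at 1.19% in the 19-24 nt (1.11 to 1.28), 0.991% in the 24-30 nt (0.957 to 1.03) and 0.172% in the 19-30 nt fraction. mt-Tp was above mt-Te in the 19-30 nt fraction only, by 82 to 46 reads.

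The next 5 tRNA genes had 290 to 475 reads in the 24-30 nt fraction and at most 9 in the 19-30 nt fraction. mt-Tm (methionine) had 16, 475 and 9 reads. mt-Tq (glutamine) had 23, 367 and 2 reads, and mt-Tc (cysteine) 23, 351 and 9. These came to 1384 (1262 to 1514), 1069 (962 to 1184) and 1022 RPM (918 to 1135) for mt-Tm, mt-Tq and mt-Tc in the 24-30 nt fraction, where the intervals of mt-Tq and mt-Tc overlap. mt-Tn (asparagine) had 9, 341 and 6 reads, and mt-Ts1 (the other serine tRNA) 9, 290 and 3. The remaining 12 tRNA genes ranged from 18 reads for mt-Ty (tyrosine) to 170 for mt-Tk (lysine) in the 24-30 nt fraction. In the 19-24 nt fraction they ranged from 1 read for mt-Ty to 47 for mt-Tv (valine). Of the 156 mt-Tl1 reads in the 24-30 nt fraction, 80 also equal a nuclear transcript, so that the count of this leucine tRNA is uncertain.

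Nearly all tRNA reads were sense, 98.3% in the 19-24 nt (97.4 to 98.9), 98.8% in the 24-30 nt (98.6 to 99.0) and 95.0% in the 19-30 nt fraction (92.4 to 96.7). Within the sense reads, a 5′-end read starts within the first 3 bases of the tRNA, and a 3′-part read starts beyond its middle. 5′-end reads made up 62.8% (59.9 to 65.6), 45.8% (44.9 to 46.7) and 63.6% (58.6 to 68.3) in the 19-24, 24-30 and 19-30 nt fractions. 3′-part reads made up 25.6%, 43.6% and 25.3%. Reads whose first 20 nt run past the gene into CCA were not counted, so fragments of 20 to 22 nt that end in CCA are missing from the 3′ part. mt-Ts2 set these shares: without it 5′-end reads were 11.3% (8.51 to 14.7), 26% (25.1 to 27) and 23.9% (18.2 to 30.6), and 3′-part reads were 69%, 60.1% and 53.3%. So the order of the 2 ends turns in all 3 libraries when this 1 gene is left out.

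The tRNAs differed in which end was read. In the 24-30 nt fraction 21 tRNA genes had at least 20 sense reads, of which 13 had more 5′-end than 3′-part reads and 8 the reverse. mt-Ts2 had 97.6% 5′-end reads, mt-Tw (tryptophan) 90.2% and mt-Ts1 84.3%. mt-Tm, with 69.2%, mt-Tq, with 59.9%, mt-Tp, with 58.3%, and mt-Tn, with 58.1%, had 5′-end reads as the larger class beside a second set further along the gene. In contrast, 3′-part reads made up 96.3% of mt-Ta, 87.5% of mt-Te and 84.4% of mt-Tg reads, and 5′-end reads 0.509%, 1.74% and 1.36%. mt-Tc had neither as a majority, with 10.3% 5′-end and 23.9% 3′-part reads, its other reads starting between. mt-Tr (arginine) and mt-Th (histidine) had no 5′-end read among 49 and 57 sense reads. The same contrast between mt-Ts2 and the mt-Ta, mt-Te and mt-Tg group was present in the other libraries: 5′-end reads were 91.6% and 99.5% for mt-Ts2 (19-24 and 19-30 nt), and 3′-part reads were 88.6% and 100% for mt-Ta, 86.0% and 95.7% for mt-Te and 93.1% and 100% for mt-Tg, the last over 5 reads in the 19-30 nt fraction.

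**Figure D2:**
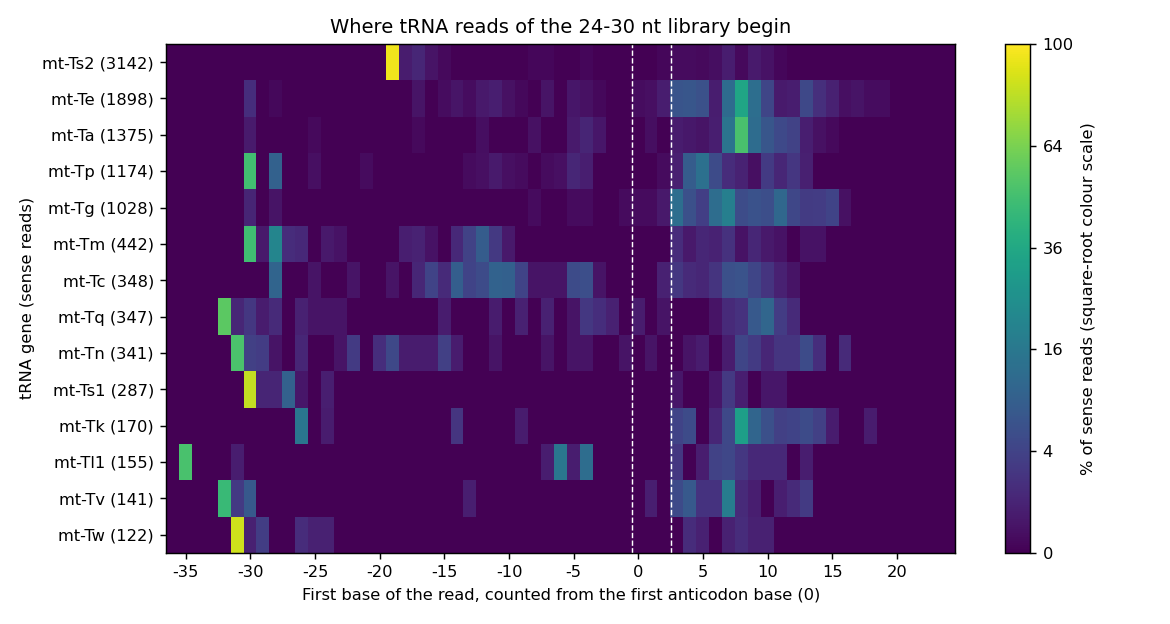
Share of a tRNA's sense reads that begin at each position in the 24-30 nt fraction, for the 14 tRNA genes with at least 100 sense reads, with positions counted from the first anticodon base, the anticodon between dashed lines and a square-root colour scale. mt-Ts2 reads begin 19 bases before the anticodon, at base 1 of the tRNA, while mt-Te, mt-Ta and mt-Tg reads begin behind the anticodon.

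The 3′-part reads began at like distances from the anticodon in most tRNAs, within a narrow range that their definition sets. They start beyond the middle of the gene, which lies near the anticodon, and leave 20 bases to match. Starts before the middle are not among them: mt-Tl1 had 24 and 20 reads from bases 30 and 32 in the 24-30 nt fraction, against 7 from its leading 3′-part start. In the 24-30 nt fraction 13 tRNA genes had at least 20 such reads, and in 12 of them the most frequent start lay 1 to 8 bases behind the last anticodon base, with a median over the 13 of 6 bases. The exception was mt-Tn, at 11 bases. Of all 4953 3′-part reads, 4176 (84.3%, 83.3 to 85.3) began in those 8 bases. mt-Ta reads began at base 39 in 695 of 1375 cases, 6 bases behind the anticodon. mt-Te reads began at base 39 in 659 of 1898 cases, also 6 bases behind it, and mt-Tg reads at base 38 in 192 of 1028 cases, 5 bases behind it. In the 19-24 nt fraction such starts were a minority, 87 of 286 3′-part reads (30.4%, 25.4 to 36), and in the 19-30 nt fraction 38 of 96 (39.6%, 30.4 to 49.6). mt-Te showed this shift: its leading start was base 48 in the 19-24 nt fraction (39 of 86 reads) and base 50 in the 19-30 nt fraction (25 of 46). Base 50 is the last start of mt-Te that leaves 20 bases to match. Starts nearer the 3′ end were not counted, neither for mt-Te nor in the shares above. The mt-Te fragment from base 39 was not sized, so its end is not known. The part of the gel window in this shift was not tested.

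The 19-24 nt fraction held 1 fragment of mt-Tv that the other libraries had little or none of. It began at base 36, directly behind the anticodon, in 26 of the 47 mt-Tv reads of that library, against 7 of 141 sense reads in the 24-30 nt fraction and none in the 19-30 nt fraction. With inserts of 19 nt counted too, it was most often 19 nt long, in 99 inserts (chrM:1060-1078, plus strand).
mt-Tv, bases 36 to 54: acccagaagatttcatgac

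Inserts could be sized up to 22 nt in the 26 nt reads and up to 30 nt in the 36 nt reads, so lengths rest on the 19-30 nt fraction. There, inserts that began at base 1 of mt-Ts2 had 3 preferred lengths (317 inserts of 18 nt or more). Those of 19 nt, which end at the last base before the anticodon, made up 35.0%. Those of 22 nt, which end at the last anticodon base, made up 20.5%, and those of 23 nt, 1 base further, 20.2%. Those of 21 nt were 0.946%. In the 19-24 nt fraction, inserts of 22 nt made up 29.4% and those of 19 nt 21.2% of 822, those of 21 nt 2.07%, and 33.1% were not sized. The gap at 21 nt was thus present in both libraries. mt-Tp behaved otherwise: of 24 sized inserts from its base 1 in the 19-30 nt fraction, 23 were 30 nt long and ended at the last base before its anticodon. That is the longest insert that could be sized, and another 52 of the 76 reads from this base had no linker within 36 nt and were set aside as longer. Among the inserts that could be sized, both tRNAs thus had an end directly before the anticodon, at 19 nt in mt-Ts2 and 30 nt in mt-Tp, but a longer mt-Tp fragment could not be placed.

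**Figure D3:**
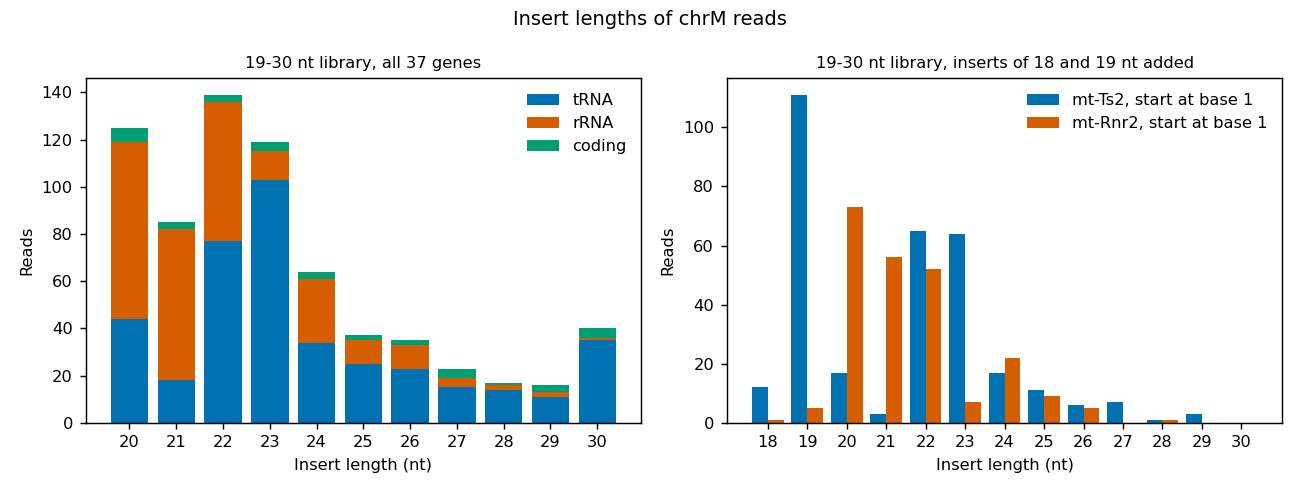
Number of reads by insert length in the 19-30 nt fraction, on the left for the 37 genes stacked by type and on the right for inserts that begin at base 1 of mt-Ts2 and mt-Rnr2, with 18 and 19 nt inserts added. mt-Ts2 inserts stand at 19, 22 and 23 nt, mt-Rnr2 inserts at 20 to 22 nt, and the tRNA reads at 30 nt include 23 of mt-Tp.

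Over all 37 genes, inserts of 20 to 23 nt made up 66.9% of mitochondrial reads of the 19-30 nt fraction (63.3 to 70.2), with a median of 23 nt. The share was 78.9% for rRNA (73.7 to 83.4, median 21 nt), 60.7% for tRNA (55.8 to 65.3, median 23 nt) and 45.7% for coding genes (30.5 to 61.8, median 24 nt). Without mt-Rnr2 and mt-Ts2 it was 45.6% (39.5 to 51.8), and the most frequent lengths were then 23 nt, with 18.8%, and 30 nt, with 15.6%.

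A part of the 3′ fragments carried the CCA that is added after transcription. Of 1292 sized tRNA inserts of 18 nt or more in the 19-24 nt fraction, 157 reached the last base of the gene, and in 121 of these (77.1%, 69.9 to 83.0) the bases CCA followed and closed the insert. In the 19-30 nt fraction 95 of 567 reached the end, and CCA closed 75 (78.9%, 69.7 to 85.9). Only 3 and 4 inserts ended at the last base of the gene itself. Among reads of 26 nt that ran at least 3 bases past the gene without a linker, CCA followed the gene in 69 of 100 in the 19-24 nt and 46 of 60 in the 24-30 nt fraction. mt-Te gave most of the CCA inserts in the 19-30 nt fraction, 57 of the 75. The leading ones are shown with the added CCA in capitals. The mt-Te fragments (chrM:14071-14087 and chrM:14071-14090, minus strand, without CCA) had 40 inserts over the 3 libraries, 27 of them in the 19-24 nt fraction, and 23, which came from the 19-30 nt fraction, since inserts of 23 nt could be sized only there. By the start alone, base 50 of mt-Te had 16, 2 and 25 reads (19-24, 24-30 and 19-30 nt). The mt-Tg fragment (chrM:9441-9458, plus strand) had 17, of which 16 in the 19-24 nt fraction, and the mt-Tt fragment (threonine tRNA, chrM:15339-15355, plus strand) had 10, all in the 19-24 nt fraction.
mt-Te, 20 nt: aatgctgtgtagaaataCCA
mt-Te, 23 nt: ttgaatgctgtgtagaaataCCA
mt-Tg, 21 nt: taaacccagaagagagtaCCA
mt-Tt, 20 nt: cttctcttctcaagacaCCA

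The rRNA genes differed between libraries more in position than in strand. mt-Rnr2, the large-subunit rRNA of the mitochondrial ribosome, had 213, 892 and 251 reads (19-24, 24-30 and 19-30 nt). Reads from its base 1 were 64 of 205 sense reads in the 19-24 nt fraction (31.2%, 25.3 to 37.9), 33 of 882 in the 24-30 nt fraction (3.74%, 2.68 to 5.21) and 225 of 250 in the 19-30 nt fraction (90%, 85.7 to 93.1). The 3 intervals do not overlap. Among inserts of 20 nt or more, this was the mitochondrial 5′ end with most reads of the 19-30 nt fraction, with 32.1% of its mitochondrial reads. With inserts of 18 and 19 nt counted too, base 1 of mt-Ts2 had more, 317 against 231. Of the 231 from base 1 of mt-Rnr2, 31.6% were 20 nt, 24.2% were 21 nt and 22.5% were 22 nt, and 43 further reads had no linker and were set aside. The 141 and 849 sense reads of the 19-24 and 24-30 nt fractions that began elsewhere had 104 and 337 distinct starts, and 75.2% and 72% of them began beyond the middle of the gene.

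**Figure D4:**
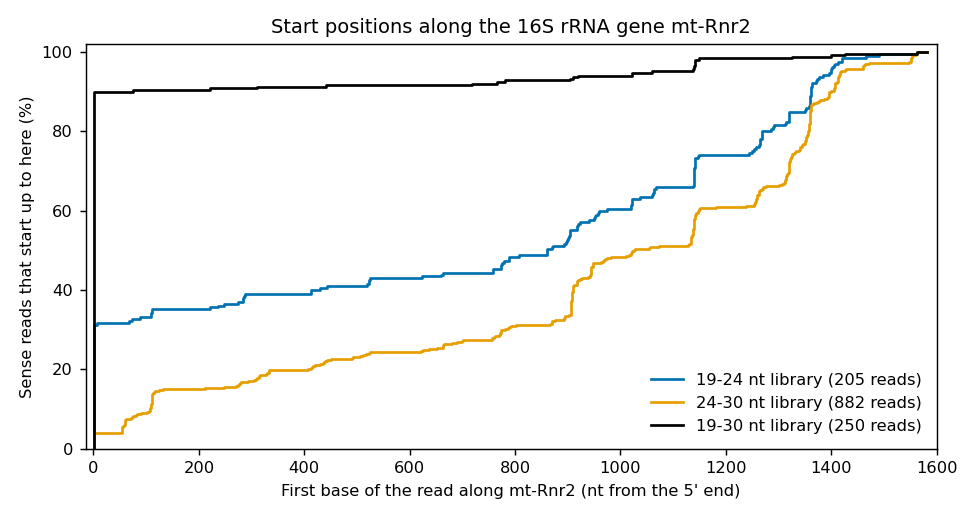
Cumulative share of mt-Rnr2 sense reads by the position of their first base, 1 line per library. The line of the 19-30 nt fraction reaches 90% at base 1, that of the 19-24 nt fraction 31.2% and that of the 24-30 nt fraction 3.74%.

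mt-Rnr1, the small-subunit rRNA, had 82, 434 and 15 reads. Its base 1 gave 11 of 79, 10 of 425 and 2 of 15 sense reads. In the 24-30 nt fraction 146 of the 425 began in the last of 10 equal stretches of the gene, more than in any other stretch, the next being 57. Sense reads made up 96.3%, 98.6% and 99.6% of the reads of both rRNA genes together.

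Coding genes were the lowest type per length and the least strand-biased. mt-Co1, the catalytic core subunit of complex IV, led with 103, 535 and 7 reads (19-24, 24-30 and 19-30 nt), and 99, 506 and 4 of them were sense. Its leading start, base 412, had 8 and 64 reads in the 19-24 and 24-30 nt fractions. mt-Nd5, a proton-pumping subunit of complex I, had 41, 200 and 2 reads, of which 25, 69 and 0 were sense. It was the only gene with more antisense than sense reads in the 24-30 nt fraction, and its 131 antisense reads had 107 different starts. mt-Cytb, the cytochrome b of complex III, had 35, 150 and 7 reads, and 14, 65 and 6 were antisense. mt-Co2 had 34, 149 and 2 reads and mt-Co3 25, 138 and 1, and 134 and 111 of those in the 24-30 nt fraction were sense. Counting only reads without a nuclear match, mt-Co1 no longer led in the 24-30 nt fraction, with 112 reads against 119 of mt-Nd5 and 109 of mt-Cytb. The other 8 coding genes had 10 reads (mt-Atp8) to 113 reads (mt-Atp6) in the 24-30 nt fraction.

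By complex, the 3 complex IV genes stood at 17.6, 79.5 and 2.31 RPM per 100 nt in the 19-24, 24-30 and 19-30 nt fractions. The 7 complex I genes stood at 6.17, 28.9 and 1.75, cytochrome b at 10, 38.2 and 4.27, and the 2 ATP synthase genes at 7.39, 40.5 and 1.58. With all reads counted, complex IV was the highest in the 19-24 and 24-30 nt fractions. Reads without a nuclear match gave another order: cytochrome b stood at 8.57 and 27.8 RPM per 100 nt, complex I at 3.65 and 17.0, complex IV at 3.36 and 10.8 and ATP synthase at 1.11 and 2.63. These values still divide by the full gene lengths. mt-Co2, mt-Co3, mt-Atp6 and mt-Nd4l had only reads with a nuclear match, so they add length but no read. This second order thus depends on which genes have annotated nuclear copies and cannot be read as an order of levels. In the 19-30 nt fraction the counts were 16, 7, 10 and 2 reads for complexes I, III and IV and ATP synthase, too few for an order. Sense reads were 91.4% of complex IV reads in the 24-30 nt fraction (89.2 to 93.1), 83.7% of ATP synthase reads (76.2 to 89.2), 61.5% of complex I reads (57.6 to 65.2) and 56.7% of cytochrome b reads (48.7 to 64.3).

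The coding counts cannot be assigned to mitochondria alone, because copies of mitochondrial DNA lie in the nuclear genome. Of the coding reads 59.9% in the 19-24 nt (54.6 to 65.0), 65.1% in the 24-30 nt (62.9 to 67.4) and 71.4% in the 19-30 nt fraction (54.9 to 83.7) also equalled a nuclear transcript over 20 nt. This was so for 0.705%, 0.721% and 1.5% of tRNA reads and 3.73%, 2.04% and 0.752% of rRNA reads. All 149 mt-Co2 reads, all 138 mt-Co3 reads and all 113 mt-Atp6 reads of the 24-30 nt fraction were of this kind. Most of the nuclear matches were annotated pseudogenes, Gm13340 on chromosome 2 first, with 379 reads of the 24-30 nt fraction. Copies that are not annotated as transcripts were not searched. Among coding reads without such a match, the sense share was 71.9% (63.7 to 78.8) in the 19-24 nt and 68.9% (65.1 to 72.5) in the 24-30 nt fraction, against 80.4% and 76.9% with all reads. mt-Nd5 kept more antisense than sense reads in the 24-30 nt fraction, 82 against 37.

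In the 19-30 nt fraction the coding genes had 35 reads, of which 12 were sense (34.3%, 20.8 to 50.8) and 25 were shared with nuclear transcripts. This is the only type and library in which antisense reads were the larger number. Without shared reads 3 were sense and 7 antisense.

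Of the 179 antisense reads of tRNA genes over the 3 fractions, 100, opposite mt-Tp, mt-Tt and mt-Tq, began 1 or 2 bases behind the end of a tRNA gene on the other strand. Those opposite the last base of mt-Tp (6, 29 and 12 reads in the 19-24, 24-30 and 19-30 nt fractions) were 47 of the 56 antisense mt-Tp reads, and they begin at chrM:15356, 1 base behind the end of mt-Tt on the plus strand. Conversely, those opposite the last 2 bases of mt-Tt (1, 22 and 4 reads) begin 1 or 2 bases behind the end of mt-Tp on the minus strand. mt-Tp and mt-Tt adjoin on opposite strands. The same held for mt-Tq, where 26 antisense reads over the 3 libraries begin 1 or 2 bases behind the end of mt-Ti on the plus strand. The antisense reads of mt-Tm were different. Of the 34 over the 3 libraries, 29 began opposite its bases 47 and 48, which lie 1126 and 1127 bases behind the nearest gene end upstream on that strand. Reads that crossed from a gene into its neighbour on the same strand could be read only where no gap lies between them, at 21 of 36 pairs of neighbours. There were 3, 20 and 1 of them, or 0.169%, 0.137% and 0.143% of the reads within genes.

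The genes on the minus strand are mt-Nd6, a complex I subunit and the only coding gene there, and 8 tRNA genes (mt-Tq, mt-Ta, mt-Tn, mt-Tc, mt-Ty, mt-Ts1, mt-Te and mt-Tp). mt-Nd6 had 9, 95 and 2 reads (19-24, 24-30 and 19-30 nt), of which 4, 82 and 1 were sense. The 8 tRNA genes gave 18.6% of sense tRNA reads in the 19-24 nt fraction (16.5 to 21), 50.9% in the 24-30 nt fraction (50.0 to 51.8) and 39.6% in the 19-30 nt fraction (34.8 to 44.6), against 14 tRNA genes on the plus strand. Reads of the minus strand, whatever their sense, made up 16.2%, 43.6% and 25.7% of mitochondrial reads. The minus-strand share was thus highest in the 24-30 nt fraction, where mt-Ta, mt-Te and mt-Tp stood 35.0-fold, 19.7-fold and 27.6-fold above their RPM in the 19-24 nt fraction, and 7.45-fold, 4.19-fold and 5.89-fold above it without microRNA reads.

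Mitochondrial reads most often began with A. A was the first base of 63.6% of them in the 19-24 nt fraction (61.3 to 65.8), 56.4% in the 24-30 nt fraction (55.6 to 57.2) and 71.7% in the 19-30 nt fraction (68.3 to 74.9), while A makes up 33.7% of the sense bases of the 37 genes. U was first in 14.3% (12.8 to 16), 19.3% (18.6 to 19.9) and 15.3% (12.8 to 18.1), against 29.6% of the bases. Matched reads outside mitochondrial and microRNA genes, which include piRNAs and endogenous siRNAs that commonly begin with U, had U first in 51.7%, 72.3% and 60.3%. mt-Ts2 and mt-Rnr2 both begin with A. Without mt-Ts2 the share of A was 44.3%, 45.1% and 60.7%, and that of U 23.6%, 24.4% and 21.4%, still below the other matched reads in each library. Of the 304 reads with A then left in the 19-30 nt fraction, 246 were of the rRNA genes. The lead of A there thus rests on these fragments, and among the 35 coding reads U was first in 16 and A in 14. Of the 44 antisense reads of the 19-30 nt fraction 24 began with U (54.5%, 40.1 to 68.3), and of the 557 in the 24-30 nt fraction 27.6% did (24.1 to 31.5). Of the 24, 12 were the start opposite the last base of mt-Tp, and without it 12 of 32 began with U (37.5%, 22.9 to 54.7) in the 19-30 nt and 23.7% (20.2 to 27.5) in the 24-30 nt fraction.

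A list of 29 symbols of nuclear genes for the synthesis, processing and decay of mitochondrial RNA was read alongside, with 26 of the symbols found in the annotation. Among these are the polymerase Polrmt and the CCA-adding enzyme Trnt1. The 26 genes had 12.8, 30.3 and 20 reads in sum, with shared reads divided between the genes they match, and none reached 20 reads. Trnt1 had 6, 0 and 10 reads and Polrmt none in any library, so that these small RNA libraries hold too few reads of the list for a comparison.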

How the data were processed

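The deposited files hold no counts. They hold other values, single reads with base qualities, which the authors had not trimmed of the 3′ linker. Illumina 1G sequencing is given per the labels. No source used here names an aligner or a genome build. All planned measures were kept, with reads counted here.

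Linkers were located with at least 4 bases of overlap in 26 nt reads and 6 in 36 nt reads, and up to 20% mismatches. A linker was refused where the read fitted the mitochondrial genes at least as well, which concerned 999 reads of the 24-30 nt library, 871 of them of mt-Te. Reads of 26 nt without a linker were taken as 23 nt or longer, and reads of 36 nt without one were set aside. Inserts of at least 20 nt, without an uncalled base in the first 20 and with no base in 16 or more of these, numbered 604308, 1388160 and 370277 in the 19-24, 24-30 and 19-30 nt libraries. Their first 20 nt had to equal a GENCODE M21 transcript on either strand. A read matching a mitochondrial gene was counted there in full, also where a nuclear transcript shared it, and 2 reads in the overlap of mt-Atp8 and mt-Atp6 were counted for both. Bases beyond the first 20 were not required to match.

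No test was made, since there is 1 library per window. Intervals are at 95%: Wilson's for shares, exact Poisson for levels and conditional binomial for ratios. Ratios were taken for genes with at least 20 reads in the pair, with counts under 3 raised to 3 for the calls. Anticodons were placed by a search for the textbook anticodon with its flanking bases. Trimming, matching and ratios were tested on simulated data. No genome sequence was used, so the control region was not analysed here.

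All 37 genes are accounted for, and the 10 tRNA and 5 coding genes with most reads, both rRNA genes and the minus-strand genes are given by library. The printed sequences are the leading starts of the genes with most reads. The genes, lists and measures were chosen with earlier results of these data known. Python 3.11.15, numpy 2.4.6, scipy 1.17.1 and matplotlib 3.10.9 were used.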

Additional observations from a re-analysis of the deposited data

How the results depend on the processing

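No paired analysis was possible because each gel window has 1 library and no result comes from a test. Values are given in the order 19-24, 24-30 and 19-30 nt, and for ratios 24-30 over 19-24, 19-30 over 19-24 and 19-30 over 24-30 nt. The linker check, the addition of reads over 30 nt, the removal of mt-Ts2, mt-Rnr2 or Nlrp5, the gene ratios without microRNA, the complexes without nuclear matches and the antisense first base without the mt-Tp start were chosen after seeing the data. Of 129 alternatives for the main values, 56 stayed within the counting interval, 72 moved beyond it and 1 reversed. Changes of order, as of the tRNA ends without mt-Ts2 or of the types over distinct sequences, are counted as moved and not as reversed. The value counted as reversed is the ratio of the 19-30 to the 19-24 nt library, 1.01 with a linker that allows no mismatch, which is close to equal. That setting also gave 0.141 for 19-30 over 24-30 nt and, in the 19-30 nt library, a share of 0.595%, 67.3% tRNA and 58.4% of inserts at 20 to 23 nt. Of the other values, by gene, type or 3′ part, 276 stayed within the interval and 63 moved. Leaving out the linker check against the genes, or adding reads over 30 nt, moved none of the 16 and 7 main values tried. Adding reads over 30 nt did move 4 of the other values, while 17 stayed within the interval.

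The mitochondrial share was 0.505% and 3.88% (19-24 and 24-30 nt) for reads without a nuclear match, 0.7998% and 0.601% (19-24 and 19-30 nt) with 18 and 19 nt inserts, and 0.633% (19-24 nt) with CCA added to the tRNA genes. It was 2.11%, 5.05% and 0.355% over distinct sequences, 0.292%, 1.05% and 0.189% per usable insert, and 2.94%, 4.59% and 0.605% without microRNA. Ratios were 5.29, 0.751 and 0.142 with 18 and 19 nt inserts, 2.39, 0.168 and 0.0703 over distinct sequences, 3.59, 0.647 and 0.180 per usable insert, and 1.56, 0.206 and 0.132 without microRNA. The first was 6.71 with CCA added.

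The tRNA share was 72.9% and 85.7% (19-24 and 24-30 nt) without nuclear matches, 68.2% and 62.4% (19-24 and 19-30 nt) with 18 and 19 nt inserts, and 67.4% (19-24 nt) with CCA. It was 27.7%, 21.3% and 50.0% over distinct sequences, 39.9%, 73.3% and 39.9% without mt-Ts2, and 73.0%, 84.2% and 88.9% without mt-Rnr2. Over distinct sequences a start counts once, however many reads it has. Sense reads were 95.6%, 97.4% and 95.8% without nuclear matches, 88.7%, 82.4% and 81.2% over distinct sequences, and 95.7% (19-24 nt) with 18 and 19 nt inserts.

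5′-end tRNA reads were 57.0% and 70.4% (19-24 and 19-30 nt) with 18 and 19 nt inserts, 54.6% and 58.1% (the same) with CCA, and 11%, 9.76% and 15.9% over distinct sequences. They were 57.7% and 42.8% (19-24 and 24-30 nt) for base 1 alone, 66.04% (19-24 nt) for the first 5 bases, and 11.3%, 26% and 23.9% without mt-Ts2. Inserts of 20 to 23 nt in the 19-30 nt library were 62.7% without mt-Ts2 and 59.7% without mt-Rnr2. U was first in 23.6%, 24.4% and 21.4% without mt-Ts2, and in 22.7% without mt-Rnr2 and 12.7% of sense reads in the 19-30 nt library. Depth limits the 19-30 nt library most: 4 of its genes had at least 20 reads, and 3 reads there are 20.9 RPM.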
